A study of Sus scrofa domesticus with 9 samples.

Results

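The BTB-kelch adaptors of the KLHL and KBTBD families and the cullins were examined in the lungs of pigs that received an increased or a standard dose of cholecalciferol (vitamin D3). Genes were taken by name: KLHL or CUL followed by a digit, or KBTBD. The table of 35670 genes held 52 of them, namely 36 KLHL, 8 KBTBD and 8 cullin genes. Of these, 34 had a mean normalized count over 20 and were tested (23 KLHL, 4 KBTBD and 7 cullin genes) among 12446 genes in all that passed the same filter. The family itself was defined by name only, but KLHL3, around which it was drawn up, was chosen by its lower normalized counts in increased-dose lungs in these same libraries, so its values are a description and no p-value of it is given. Where KLHL3 stands in a count of calls this is said, and nothing is read from its place there.

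Cullins are the scaffolds of the largest class of ubiquitin ligases. At one end a cullin holds a RING protein, RBX1 or RNF7, that brings in the ubiquitin-charged enzyme, and at the other end it holds an adaptor that selects the substrate. CUL3 uses proteins with a BTB domain as adaptors, and in KLHL and most KBTBD proteins the BTB domain is followed by a kelch propeller that binds the substrate. KLHL3 is best known from the distal nephron of the kidney, where CUL3-KLHL3 marks WNK kinases for degradation and where mutations of either gene cause familial hyperkalaemic hypertension in humans.

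The animals were fatteners kept on feed for 88 days, between body weights of 30 and 110 kg. Cholecalciferol in the grower and then the finisher feed was 3000 and 2500 IU per kg for the increased dose (5 libraries) and 2000 and 1500 IU per kg for the standard dose (4 libraries). Tissue came from the middle part of the upper lobe of the left lung, and the libraries were made with QuantSeq, which reads transcripts near their 3′ end. The unit throughout is the normalized count, a gene's reads divided by a size factor of the library. Unless another tool is named, log2 differences compare the group means of log2(normalized count + 1). Where groups are close, their sign can differ from that of the printed means. Genes counted as having higher or lower means are counted by this log2 difference. Because whole lung was sequenced, fewer cells of a type and less RNA per cell cannot be told apart. Each library is 1 animal, and errors are SD over animals. The labels and the study's methods give the sequenced animals as female, whereas its discussion gives them as male. Of the Y-linked genes, EIF1AY had 10 to 36 reads in increased-dose and 32 to 104 in standard-dose libraries, and ZFY had 10 to 31 in increased-dose and 22 to 106 in standard-dose libraries, but both have X-linked copies that may share reads. KDM5D had 11 reads in 2 standard-dose libraries and no reads in increased-dose libraries. SRY had no reads in any library, so the sex of the animals is not settled here.

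The libraries held 4427608 to 5919294 reads in genes in the increased-dose group and 4253502 to 5411543 in the standard-dose group. The ranks of all tested genes correlated with those of the other libraries at a median Spearman rho of 0.912 to 0.933 in 7 libraries, but at 0.751 in standard dose replicate 9 and 0.831 in standard dose replicate 41. These 2 libraries stand apart from the rest, and the tested members are also plotted without replicate 9 and without both. Type 2 pneumocyte markers, which define the labelled tissue, summed to 15975 to 29332 normalized counts in increased-dose lungs and 4091 to 18607 in standard-dose lungs, with the lowest sum in standard dose replicate 9. Of the 8 listed, 7 were measured, and all 7 had higher means in increased-dose lungs. Hepatocyte markers, proteins that the liver secretes or uses in its metabolism, summed to 32333 to 67825 in increased-dose lungs and 57500 to 430182 in standard-dose lungs. The 19 measured of the 20 listed were all highest in standard dose replicate 9, and none was at 0 in all libraries. Skeletal muscle markers summed to 64988 to 153666 in increased-dose lungs and 38789 to 268760 in standard-dose lungs, and all 9 tested of the 12 listed were highest in standard dose replicate 41.

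KLHL3 (ENSSSCG00000014321, Sscrofa11.1 chromosome 2, 139632869 to 139920497, minus strand) was lower in increased-dose lungs. Its normalized count was 99.5, 105, 75.7, 85.5 and 67.4 in increased-dose replicates 3, 19, 27, 51 and 59, against 944, 154, 176 and 337 in standard-dose replicates 9, 17, 33 and 41. The increased-dose values lay close together and all below the lowest standard-dose value, while the standard-dose group was spread out by replicates 9 and 41. The means were 86.6 ± 15.7 (SD, n = 5) in increased-dose lungs and 402.6 ± 370.3 (SD, n = 4) in standard-dose lungs, a log2 difference of -1.82 (SE 0.44, limma). Without standard dose replicate 9 the difference was -1.28, without replicate 41 it was -1.77, and without both it was -0.93. The groups did not overlap with all libraries in, so leaving libraries out could not make them overlap. These values rest on 70 to 123 reads per increased-dose library and 168 to 633 per standard-dose library.

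KLHL3 took a different place within its family in the 2 groups. In increased-dose lungs it ranked 20, 21, 24, 21 and 25 among the 34 tested members in replicates 3, 19, 27, 51 and 59, against 1, 14, 15 and 6 in standard-dose replicates 9, 17, 33 and 41. By group mean it was 23rd in increased-dose and 3rd in standard-dose lungs. Standard dose replicate 9 was the only library in which KLHL3 was the most abundant member. KLHL3 took 1.55 ± 0.267% (SD, n = 5) of the family's reads in increased-dose lungs and 7.31 ± 7.19% (SD, n = 4) in standard-dose lungs. In standard dose replicate 9 this share was 18.0% (95% Wilson interval 16.7 to 19.3%, counting error only), while in the other standard-dose libraries it was 2.96 to 5.32%, still above the 1.15 to 1.81% of the increased-dose libraries. Set against the scaffold it binds, KLHL3 had 0.273 to 0.480 reads per CUL3 read in increased-dose lungs, against 5.92, 0.566, 0.594 and 1.23 in standard-dose replicates 9, 17, 33 and 41. KLHL2, the closest relative of KLHL3 and also an adaptor for WNK kinases, gave the same order, with 0.359 to 0.588 KLHL3 reads per KLHL2 read in increased-dose lungs and 0.672 to 8.33 in standard-dose lungs. Reads near the 3′ end of such paralogs can be shared, so the division of reads between KLHL2 and KLHL3 is uncertain.

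KLHL3 varied more over the 9 libraries than any other tested member, but this includes the group difference by which it was chosen. Its coefficient of variation over the 9 libraries was 124%, against a median of 29.8% for the members, a lowest value of 16.6% for KLHL12 and a median of 36.5% for all genes tested, of which 4.21% varied more. Its highest value was 14.0-fold its lowest, KLHL31 spanned 13.3-fold and KLHL41 8.63-fold, and 19 of the 34 members stayed within 3-fold. KBTBD3 ran from 0 to 58.3, so no such ratio can be given for KBTBD3. Within the increased-dose group alone KLHL3 varied less than most members, with a coefficient of 18.2% (rank 24 of 34 from the highest) beside a median of 22.8%.

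**Figure D1:**
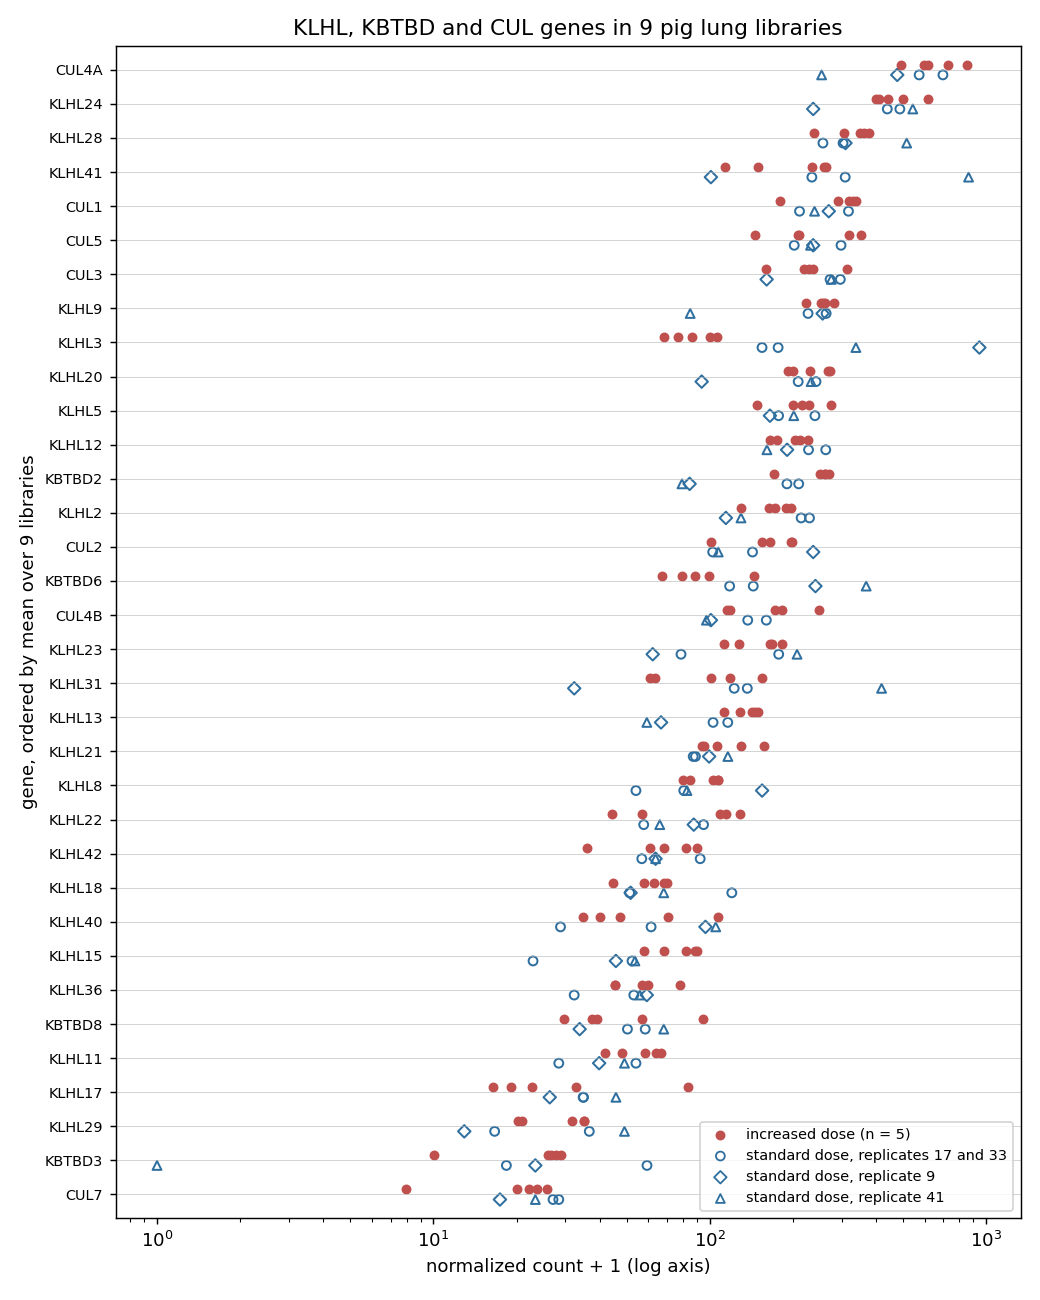
Normalized count plus 1 (log axis) of the 34 tested KLHL, KBTBD and CUL genes in each library, ordered by mean, with increased-dose libraries as filled circles above the open standard-dose symbols, where diamonds are replicate 9 and triangles replicate 41. KLHL3 spans 67.4 to 105 in increased-dose lungs and 154 to 944 in standard-dose lungs, and most other members overlap.

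The KLHL3 locus contains parts of other genes. MYOT, which encodes the sarcomere protein myotilin, overlaps it by 58086 bases on the opposite strand. MYOT averaged 154 ± 23.1 in increased-dose lungs and 183 ± 120 in standard-dose lungs. Among all libraries MYOT was lowest in standard dose replicate 9 (80.6), where KLHL3 was highest. It was highest in standard dose replicate 41 (354), where KLHL3 was next highest. The strand setting of the counting is not known here, so reads of the overlapping genes may be shared. The microRNA gene ssc-mir-874 lies within KLHL3 on the same strand and had no reads.

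The family as a whole had similar sums of normalized counts in both groups. Of the reads in genes the family took 0.122 ± 0.00832% in increased-dose lungs and 0.111 ± 0.0254% in standard-dose lungs. The lowest share was 0.0760%, in standard dose replicate 9. The 52 members summed to 5583 ± 277 (SD, n = 5) in increased-dose lungs and 5669 ± 557 (SD, n = 4) in standard-dose lungs, and without KLHL3 to 5497 ± 274 in increased-dose lungs and 5267 ± 761 in standard-dose lungs. The median log2 difference of the 34 tested members was 0.15, beside 0.01 for all genes tested, and it was also 0.15 without KLHL3. A higher mean log2 level in increased-dose lungs was found for 20 of the 34 members (58.8%), against 50.8% of all genes. No member passed the adjusted threshold in limma, where 0.0% of all genes did, and none passed in edgeR. DESeq2 called 1 member, KLHL3, the gene chosen for this difference, where it called 1.57% of all genes. The smallest adjusted p of any other member was 0.397 in limma, 0.191 in edgeR and 0.0990 in DESeq2.

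At an unadjusted p under 0.05, limma and edgeR each counted 5 of the 34 members (14.7%), against 12.2% of all genes in limma and 15.0% in edgeR. The limma count was made up of 2 members with lower means in increased-dose lungs, KLHL3 and KBTBD6 (background 6.6%), and 3 with higher means, KBTBD2, KLHL13 and KLHL15 (background 5.57%). The place of KLHL3 in these counts was fixed by its choice. Without it, 4 of the 33 other members (12.1%) passed in limma, 1 of them lower, and 4 passed in edgeR, close to the background of 12.2% and below that of 15.0%. KLHL3 and KLHL15 were the 2 of 34 members (5.88%) with no overlap between groups, against 3.81% of all genes, and of the 33 others KLHL15 alone had none (3.03%). In standard dose replicate 9, 29.1% of all genes had their highest value, but only 3 of the 34 members (8.82%) did: KLHL3, CUL2 and KLHL8. Increased dose replicate 19 held the highest value of 10 members (29.4%), against 13.1% of all genes, and standard dose replicate 41 held that of 6 members (17.6%), against 15.6% of all genes.

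**Figure D2:**
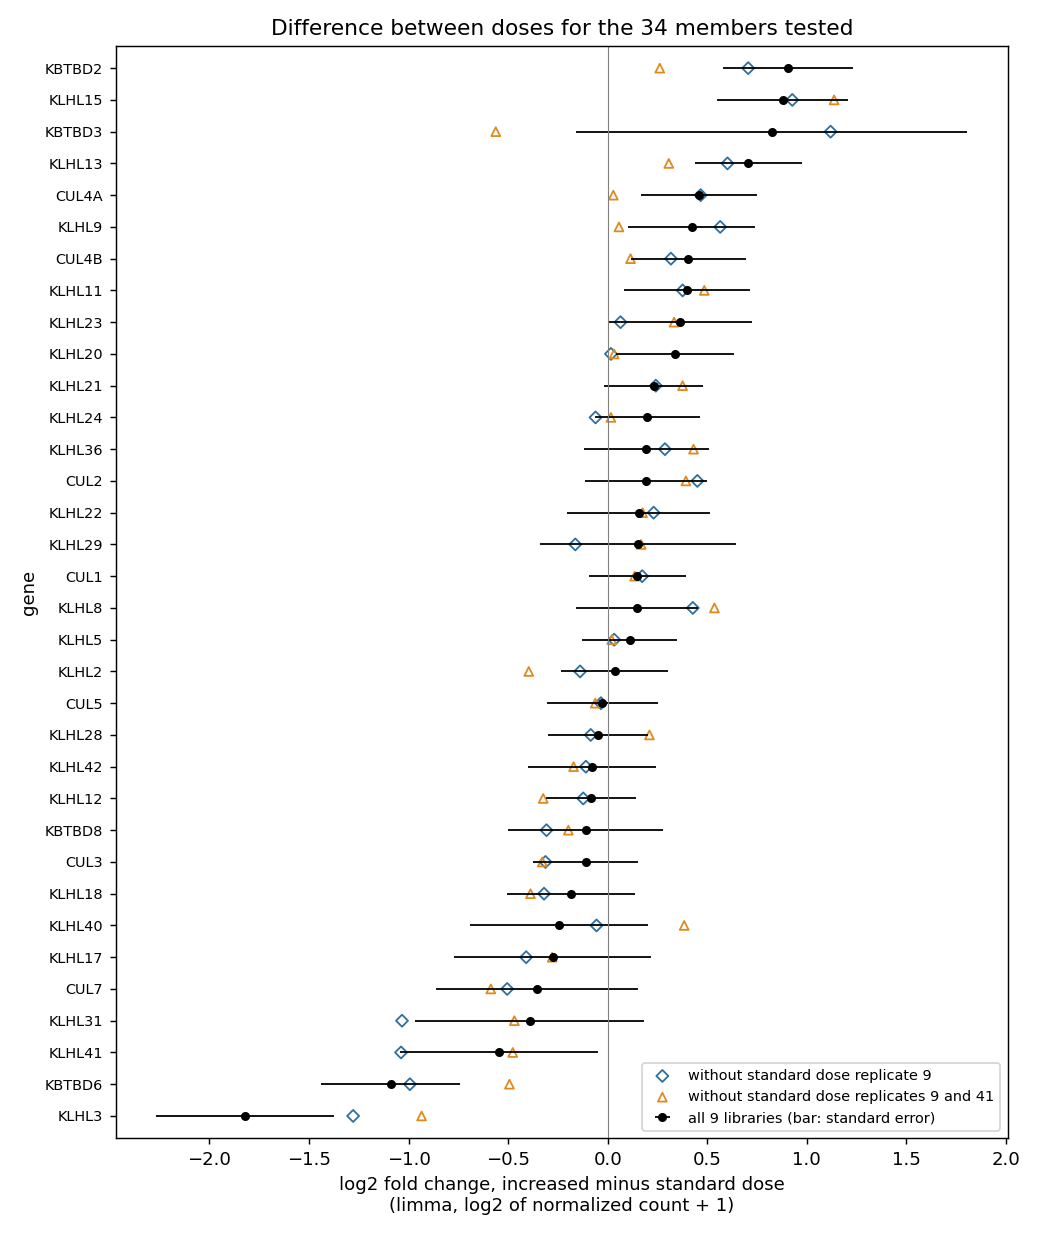
Log2 difference, increased minus standard dose, for the 34 tested members (filled circles, bars are the standard error) and the same without standard dose replicate 9 (diamonds) or replicates 9 and 41 (triangles). Most members sit near 0, and KLHL3 lies lowest at -1.82, at -1.28 without replicate 9 and at -0.93 without both.

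KBTBD6 was the member nearest to KLHL3 in direction. It is an adaptor that, with its partner KBTBD7, targets the Rac activator TIAM1 in human cells. Its normalized count was 98.6, 143, 78.4, 66.0 and 87.6 in increased-dose replicates 3, 19, 27, 51 and 59, against 240.2, 117, 143 and 367 in standard-dose replicates 9, 17, 33 and 41. The standard-dose values of replicates 9 and 41 stood above all others, and those of 17 and 33 overlapped the highest increased-dose value. The log2 difference was -1.09 (SE 0.35, unadjusted p = 0.0084, adjusted p = 0.397 in limma), with an exact permutation p of 0.0317. It was -0.49 without standard dose replicates 9 and 41. The gene annotated as KBTBD7 carries no name in the deposited sheet and is therefore outside the 52. It lies on the same strand within KBTBD6 over 2411 bases, so reads of the pair cannot be told apart with certainty, and it averaged 21.8 ± 12.3 in increased-dose lungs and 28.4 ± 8.18 in standard-dose lungs.

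KBTBD2, an adaptor that in mice degrades the p85α subunit of PI3 kinase, had a higher mean in increased-dose lungs. It measured 170.0, 269, 249, 259.7 and 261 in increased-dose replicates 3, 19, 27, 51 and 59, against 83.5, 189, 209 and 78.3 in standard-dose replicates 9, 17, 33 and 41. The libraries with low values were standard dose replicates 9 and 41, and increased dose replicate 3 lay below standard dose replicates 17 and 33, so that the groups overlapped. The log2 difference was 0.90 (SE 0.33, unadjusted p = 0.0157, adjusted p = 0.397 in limma), with an exact permutation p of 0.0317, and it was 0.26 without standard dose replicates 9 and 41.

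KLHL13 forms a CUL3 ligase with KLHL9 that removes Aurora B from mitotic chromosomes in human cells. KLHL13 measured 111, 148, 128, 145 and 142 in increased-dose replicates 3, 19, 27, 51 and 59, against 65.6, 115, 102 and 58.2 in standard-dose replicates 9, 17, 33 and 41. Only increased dose replicate 3 and standard dose replicate 17 crossed. The log2 difference was 0.71 (SE 0.27, unadjusted p = 0.0204, adjusted p = 0.397 in limma), with an exact permutation p of 0.0159, and it was 0.31 without standard dose replicates 9 and 41. KLHL9 itself averaged 254 ± 21.0 in increased-dose lungs and 207 ± 83.5 in standard-dose lungs, and its low standard-dose mean came from replicate 41, at 83.9, while the other 3 lay between 226 and 263. Its log2 difference was 0.42 (exact permutation p = 0.246), and 0.03 without standard dose replicate 41.

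KLHL15, an adaptor for a regulatory subunit of protein phosphatase 2A, was the only tested member other than KLHL3 whose groups did not overlap. It measured 57.0, 88.7, 67.0, 87.6 and 80.9 in increased-dose replicates 3, 19, 27, 51 and 59, against 44.8, 21.9, 51.3 and 52.6 in standard-dose replicates 9, 17, 33 and 41. The gap between the groups was small, and the lowest value was in standard dose replicate 17. The log2 difference was 0.88 (SE 0.33, unadjusted p = 0.0193, adjusted p = 0.397 in limma), with an exact permutation p of 0.0159. Without standard dose replicates 9 and 41 it was 1.14. KLHL13, KLHL15 and CUL4B are the 3 tested members on chromosome X, and their differences ran between 0.41 and 0.88, beside a median of 0.10 over all 392 genes tested on that chromosome, of which 56.9% were positive. Since the sex of the animals is given in conflicting ways, its part in the X-linked values was not tested.

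**Figure D3:**
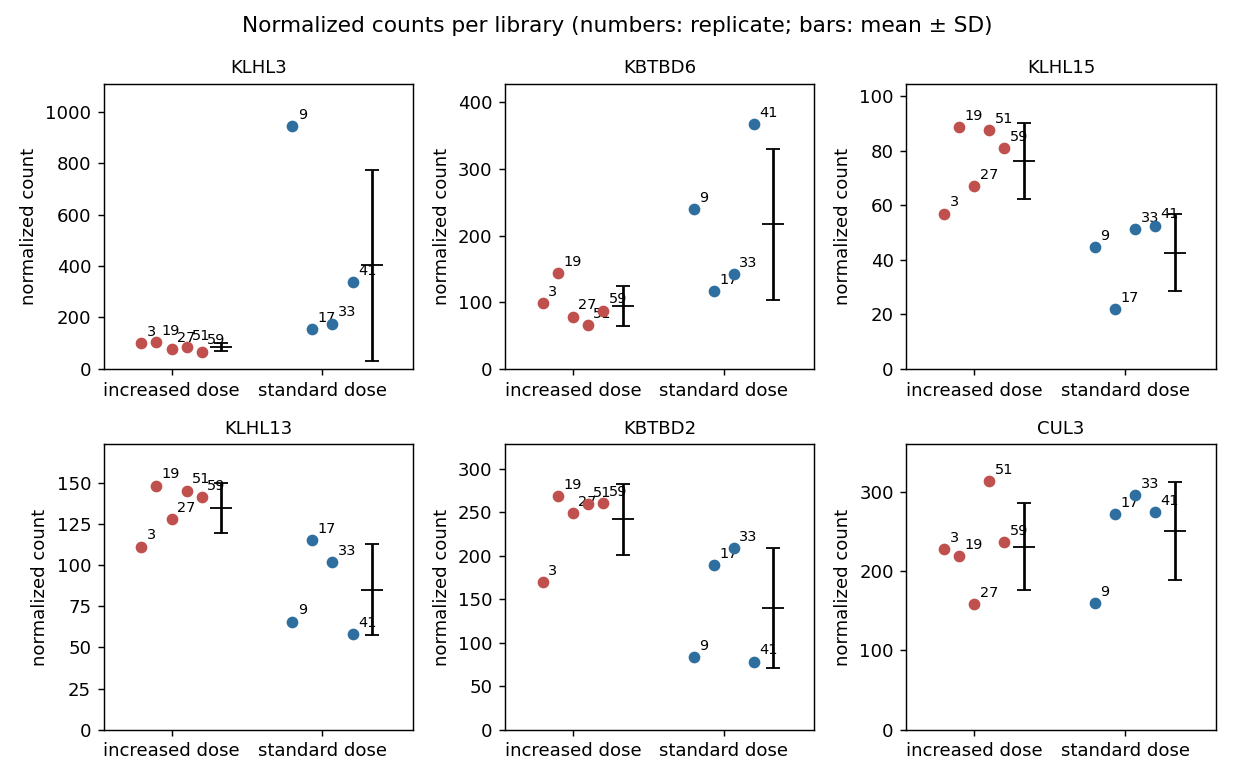
Normalized count of KLHL3, KBTBD6, KLHL15, KLHL13, KBTBD2 and CUL3 in each library (points, labelled by replicate), with increased-dose lungs to the left and bars for the mean ± SD. The groups are apart for KLHL3 and KLHL15 and overlap for the other 4 genes, and standard dose replicate 9 holds the highest KLHL3 value of 944.

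The cullins include the most abundant member of all, CUL4A. Together they summed to 1791 ± 111 (SD, n = 5) in increased-dose lungs and 1553 ± 300 (SD, n = 4) in standard-dose lungs, and the median log2 difference of the 7 tested was 0.15. CUL3, the scaffold for all BTB-kelch adaptors, measured 228, 218, 158, 313 and 236 in increased-dose replicates 3, 19, 27, 51 and 59, against 159.6, 272, 296 and 274 in standard-dose replicates 9, 17, 33 and 41. The groups overlapped broadly, and standard dose replicate 9, where KLHL3 was highest, held the lowest CUL3 value of its group. CUL3 averaged 231 ± 55.3 in increased-dose lungs and 250.3 ± 61.4 in standard-dose lungs, a log2 difference of -0.11 (SE 0.26), with an exact permutation p of 0.635.

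CUL4A, which works with DDB1 in DNA repair and replication, averaged 655 ± 137 in increased-dose lungs and 499 ± 187 in standard-dose lungs. Its log2 difference was 0.46 (exact permutation p = 0.183), but 0.16 without standard dose replicate 41 and 0.03 without replicates 9 and 41. Its X-linked paralog CUL4B averaged 166 ± 54.6 in increased-dose lungs and 123 ± 30.2 in standard-dose lungs (0.41, exact permutation p = 0.198, and 0.11 without both replicates). CUL1, the scaffold of the SCF ligases, averaged 291 ± 64.8 in increased-dose lungs and 258 ± 45.5 in standard-dose lungs, a log2 difference of 0.15. The scaffolds that take elongin adaptors were also within the spread of the animals. CUL5 averaged 246 ± 85.5 in increased-dose lungs and 241 ± 40.5 in standard-dose lungs (-0.03), and CUL2 averaged 162 ± 40.0 in increased-dose lungs and 146 ± 62.2 in standard-dose lungs (0.19). CUL7, which pairs with FBXW8, stood just above the filter at a mean of 20.8, with 18.9 ± 7.00 in increased-dose lungs and 23.1 ± 4.93 in standard-dose lungs. CUL9 averaged 21.1 ± 10.0 in increased-dose lungs and 11.82 ± 8.02 in standard-dose lungs and was not tested.

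The most abundant adaptors also showed no difference past the test. KLHL24, whose gain-of-function mutations cause skin fragility in humans, averaged 473 ± 89.5 in increased-dose lungs and 425 ± 133 in standard-dose lungs, a log2 difference of 0.20. KLHL28 averaged 326 ± 55.9 in increased-dose lungs and 346 ± 115 in standard-dose lungs (-0.05). KLHL20, an adaptor for DAPK and PML, averaged 231 ± 36.9 in increased-dose lungs and 193 ± 68.7 in standard-dose lungs (0.34), and the low value in its standard-dose group was replicate 9, at 92.5, without which the difference was 0.02. KLHL12 modifies the COPII coat so that it can enclose large cargo such as procollagen, and it was the steadiest member over the 9 libraries. It averaged 196 ± 25.9 in increased-dose lungs and 209.5 ± 44.3 in standard-dose lungs, a log2 difference of -0.08. KLHL5 averaged 213 ± 45.7 in increased-dose lungs and 195 ± 33.1 in standard-dose lungs (0.11). KLHL2 averaged 169 ± 26.0 in increased-dose lungs and 171 ± 58.3 in standard-dose lungs (0.04), which sets the close relative of KLHL3 near the middle of the family. The exact permutation p of these 6 adaptors lay between 0.341 and 0.905.

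KLHL41 and KLHL31, but not KLHL40, peaked with the skeletal muscle markers. KLHL41, KLHL40 and KLHL31 act in muscle fibres, and mutations of KLHL40 and KLHL41 cause nemaline myopathy in humans. KLHL41 measured 262, 258, 233, 148 and 113 in increased-dose replicates 3, 19, 27, 51 and 59, against 100.0, 308, 233 and 863 in standard-dose replicates 9, 17, 33 and 41. KLHL31 measured 118, 154, 100.1, 59.8 and 62.6 in the increased-dose replicates in that order, against 31.3, 122, 136 and 417 in standard-dose replicates 9, 17, 33 and 41. Both genes were highest in standard dose replicate 41 and lowest in standard dose replicate 9, as were the skeletal muscle markers, whose mean log2 level was 11.0 to 12.2 in increased-dose lungs, 10.5 in standard dose replicate 9 and 13.0 in standard dose replicate 41. The part of these markers in the result was not tested. The log2 difference was -0.54 for KLHL41 and -0.39 for KLHL31. Without standard dose replicate 9 it was -1.04 for KLHL41 and -1.03 for KLHL31, and only then was their unadjusted limma p under 0.05 among the libraries left out 1 at a time. Without standard dose replicate 41 it was -0.0055 for KLHL41 and 0.20 for KLHL31. KLHL40 averaged 58.9 ± 29.6 in increased-dose lungs and 71.9 ± 35.0 in standard-dose lungs, with high values in increased dose replicate 19 (106) and in standard dose replicates 9 (95.5) and 41 (104). Of the rarer muscle members, KBTBD12 had 18 reads in the 5 increased-dose libraries and 40 in the 4 standard-dose libraries, and KBTBD13 had 1 read, in standard dose replicate 9.

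KLHL3 and KBTBD6 moved with the hepatocyte markers across libraries. The mean log2 level of those 19 markers was 9.71 to 10.7 in increased-dose lungs, against 13.5, 10.6, 10.6 and 11.5 in standard-dose replicates 9, 17, 33 and 41, and all 19 had a lower mean in increased-dose lungs, with a median log2 difference of -1.38. KLHL3 was likewise highest in standard dose replicate 9 and next highest in 41, whereas KBTBD6 was highest in 41 and next highest in 9. The part of the hepatocyte markers in the KLHL3 and KBTBD6 results was not tested. Type 1 pneumocyte markers ran the other way, with 5 of 5 tested higher in increased-dose lungs (median 1.11), as did 6 of 7 endothelial markers (median 0.43). Smooth muscle (4 of 7 higher), B cell and plasma cell (3 of 4 higher), cardiac muscle (0 of 3 higher, with TNNT2 and NPPA at 0 in every library) and ciliated cell markers (1 of 3 higher) completed the lists.

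**Figure D4:**
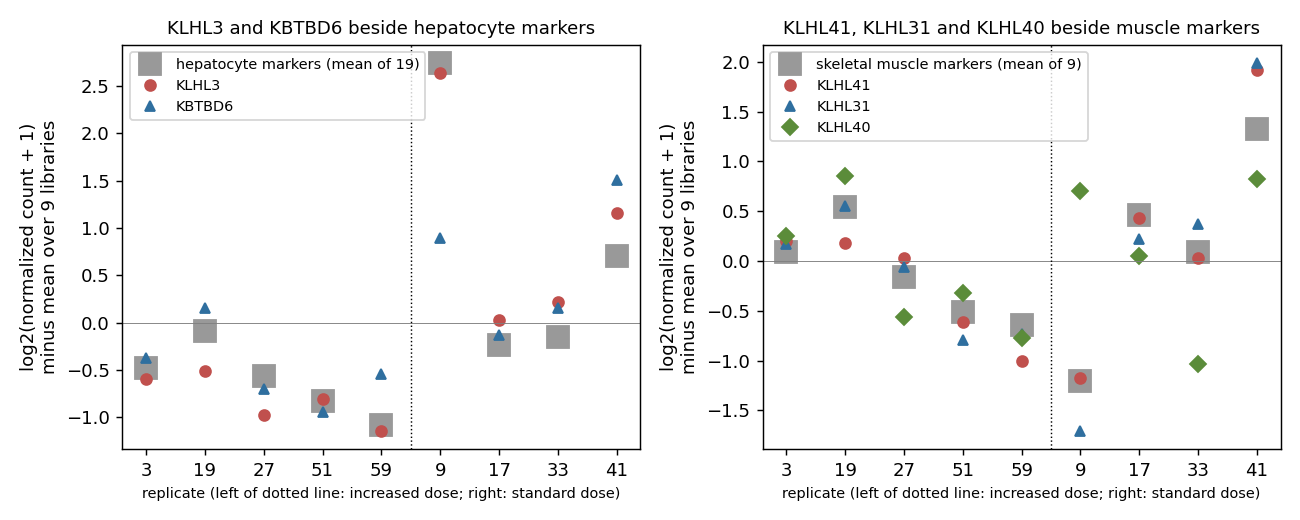
Left, log2(normalized count + 1) of KLHL3 and KBTBD6 relative to the gene's mean over 9 libraries, beside the mean of 19 hepatocyte markers. Right, the same for KLHL41, KLHL31 and KLHL40 beside 9 skeletal muscle markers. Increased-dose replicates stand left of the dotted line. KLHL3 and the hepatocyte markers peak in standard dose replicate 9, and KLHL41, KLHL31 and the muscle markers peak in standard dose replicate 41.

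Over the 9 libraries the log2 levels most like those of KLHL3 among all 12445 other genes were those of ALDH1A1, a retinaldehyde dehydrogenase (r = 0.993, rho = 0.933), PLA2G12B, a secreted phospholipase-like protein (r = 0.991, rho = 0.983), and the transcriptional coactivator PPARGC1A (r = 0.989, rho = 0.983). UPP2, a uridine phosphorylase (r = 0.987), the mitochondrial ribosomal protein gene MRPL38 (r = 0.981) and the mitochondrial carbonic anhydrase CA5A (r = 0.981) came next. Without the 2 libraries farthest from the median, standard dose replicates 9 and 41, these 6 correlations were 0.868 to 0.945 over 7 libraries. All values come from the same 9 libraries, share their size factors and include the difference between the groups, so the correlations are descriptions. Within the family KBTBD6 was most like KLHL3 (r = 0.827, rho = 0.867, and r = 0.740 without the 2 libraries), but 8.72% of all genes were more alike. KLHL40 (r = 0.531) fell to 0.022 and KLHL8 (r = 0.333) to -0.767 without those 2 libraries. KBTBD2 (r = -0.889), KLHL13 (r = -0.883) and KLHL20 (r = -0.773) were least alike, and only 9 of the 33 other members had a positive correlation.

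The remaining 18 members lay below the mean of 20. KLHL7 (19.9) and KLHL26 (18.1) were just outside the filter, as CUL7 (20.8) and KBTBD3 (23.6) were just inside it. KBTBD3 was 0 in standard dose replicate 41 and 58.3 in replicate 33, and its log2 difference of 0.82 became -0.56 without standard dose replicates 9 and 41. In DESeq2 on all libraries its log2 difference was -0.11. KBTBD3 also overlaps AASDHPPT, a phosphopantetheinyl transferase gene, by 29689 bases on the opposite strand. KLHL35 had 7, 8, 4, 4 and 3 reads in increased-dose replicates 3, 19, 27, 51 and 59, against 1, 0, 0 and 0 in standard-dose replicates 9, 17, 33 and 41. These groups did not overlap either, but the counts are near the limit of 3 reads that a count of 0 allows (2.56 to 4.48 normalized counts, depending on the library). KBTBD4, an adaptor that recruits the CoREST complex, had 51 reads in increased-dose libraries and 11 in standard-dose libraries. All 5 reads of KLHL14, known from B lymphocytes, were in standard dose replicate 33, and all 6 of KLHL25 were in increased dose replicate 51. KLHL10, a testis adaptor in mice, had 9 reads in increased-dose and 6 in standard-dose libraries. KLHL1, KLHL34 and KBTBD11 had no read in any library, and KLHL6 was not analysed here.

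The rest of the CUL3 and cullin machinery was read from 7 lists of 87 genes, of which 67 were tested. None was called by limma or by DESeq2, and at an unadjusted p under 0.05 limma counted 3 with lower and 4 with higher means in increased-dose lungs, 7 of 67, where 12.2% of all genes passed. CRBN is among those with lower means, but it passed the filter only through standard dose replicate 9. Of the 67, only KCTD10, RBX1, COPS6 and DCAF7 had no overlap between groups, where 3.81% of all genes had none. Of the other BTB-kelch adaptors, 3 of 4 had higher means (median 0.30). KEAP1, which holds NRF2 for degradation, averaged 284 ± 43.6 in increased-dose lungs and 387.5 ± 121 in standard-dose lungs (-0.41), and was highest in standard dose replicate 9. IVNS1ABP averaged 510 ± 60.8 in increased-dose lungs and 394 ± 66.3 in standard-dose lungs (0.38), and ENC1 averaged 471 ± 170 in increased-dose lungs and 355 ± 131 in standard-dose lungs (0.41).

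Among the BTB adaptors without kelch repeats, 7 of 13 had higher means (median 0.03). KCTD10 was the only one of them without overlap, at 679 ± 61.7 in increased-dose lungs and 535 ± 45.8 in standard-dose lungs (0.34, unadjusted p = 0.0893 in limma). SPOP, which binds its substrates through a MATH domain, averaged 774 ± 40.0 in increased-dose lungs and 901 ± 149 in standard-dose lungs (-0.21). BTBD6 (-0.20) and KCTD2 (-0.06) were near 0.

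The RING subunits and neddylation enzymes had higher means in 5 of 8 (median 0.28). RBX1, the RING subunit of the CUL3 ligases, measured 865, 966, 861, 847 and 907 in increased-dose replicates 3, 19, 27, 51 and 59, against 579, 801, 651 and 496 in standard-dose replicates 9, 17, 33 and 41. The groups did not overlap, and standard dose replicates 9 and 41 were lowest. RBX1 differed by 0.51 on the log2 scale (SE 0.20, unadjusted p = 0.0235 in limma), and by 0.30 without those 2 libraries. NEDD8, the modifier that activates cullins, differed by -0.16, RNF7 by -0.13 and the NEDD8-activating enzyme subunit UBA3 by 0.47.

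The deneddylation and exchange factors, which switch cullins off and swap their adaptors, had higher means in 8 of 12 (median 0.09). COPS6, a subunit of the COP9 signalosome, averaged 123 ± 13.3 in increased-dose lungs and 199 ± 67.0 in standard-dose lungs without overlap (-0.63, unadjusted p = 0.029 in limma). Without standard dose replicates 9 and 41 it was -0.23. Of the other subunits, GPS1 differed by -0.60, COPS7B by 0.88, COPS8 by 0.60, COPS9 by 0.17, COPS2 by 0.17 and COPS3 by -0.06.

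Adaptors and receptors of the other cullins had higher means in 12 of 17 (median 0.20). SKP1, the adaptor of CUL1, averaged 1472 ± 217 in increased-dose lungs and 926 ± 430 in standard-dose lungs (0.79, unadjusted p = 0.0242 in limma), with 695 and 437 in standard dose replicates 9 and 41, and its log2 difference was 0.18 without them. Elongin C (ELOC) averaged 329 ± 53.7 in increased-dose lungs and 218 ± 80.1 in standard-dose lungs (0.68, unadjusted p = 0.0416, and 0.39 without those libraries), while elongin B (ELOB) differed by -0.56. CRBN, the cereblon receptor of CUL4, averaged 8.44 ± 6.97 in increased-dose lungs and 48.9 ± 51.6 in standard-dose lungs, a log2 difference of -2.14. CRBN was at 124 in standard dose replicate 9, without which it differed by -1.50 and lay below the mean of 20. Since CRBN passed the filter only through that library, no p-value of it is given. DCAF7, another CUL4 receptor, averaged 303 ± 10.7 in increased-dose lungs and 403 ± 54.0 in standard-dose lungs without overlap (-0.40, unadjusted p = 0.0533 in limma). Its log2 difference was larger, at -0.51, without standard dose replicates 9 and 41. DDB1 (0.15) and FBXW7 (-0.41) lay within the spread.

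The substrates of KLHL3 and their targets were only partly expressed in lung. WNK1 measured 612, 1111, 940.3, 1001 and 813 in increased-dose replicates 3, 19, 27, 51 and 59, against 1408, 1076, 1214 and 1297 in standard-dose replicates 9, 17, 33 and 41. Only increased dose replicate 19 reached into the standard-dose range. WNK1 differed by -0.50 on the log2 scale (SE 0.22, unadjusted p = 0.0406 in limma), and by -0.38 without standard dose replicates 9 and 41. WNK4, the WNK kinase of the distal nephron, had 14 reads in all, and the thiazide-sensitive cotransporter SLC12A3 had 3, so neither could be compared. Of the cotransporters expressed in lung, SLC12A2 differed by 0.49, SLC12A7 by -0.02 and SLC12A4 by -0.34, and 4 of the 5 tested genes of the list had lower means (median -0.27).

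NRF2 and its target genes, read beside KEAP1, split evenly, with 4 of 8 higher (median 0.08). PGD, an enzyme of the pentose phosphate pathway, averaged 499 ± 69.6 in increased-dose lungs and 310.4 ± 113 in standard-dose lungs (0.75, unadjusted p = 0.0139 in limma, and 0.35 without standard dose replicates 9 and 41). NFE2L2, which encodes NRF2, differed by 0.28, HMOX1 by 0.56 and GCLM by -0.05.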

How the data were processed

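Lung mRNA of 9 pigs was analysed with 1 library per animal, 5 on the increased dose (replicates 3, 19, 27, 51 and 59) and 4 on the standard dose (replicates 9, 17, 33 and 41). Replicate names are the animal numbers of the titles, which were followed also for replicate 33, whose description and column name carry another number. Per the labels and the study's methods, the authors checked reads with FastQC, trimmed them with FLEXBAR, mapped them to Sscrofa11.1 with TopHat and counted them per gene with HTSeq. The strand setting of the counting is not given in the sources used here. In the deposited table the signal of a gene is its count after the authors had divided each library by its DESeq2 size factor. The deposited table also carries the authors' own comparison, with its log2 fold changes, Wald score, p-values and adjusted p-values, and these were not used. Gene names came from the deposited table, and 223 genes without a name there were named from an Ensembl name table. Gene positions came from the deposited gene sheet.

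A single read was worth 0.853 to 1.49 normalized counts depending on the library, and 100.0% of values divided by this gave a whole number to within 0.01, which returned the reads. A linear model was fitted with limma 3.58.1, using moderated variances with an intensity trend, to log2(normalized count + 1) of the 12446 genes whose mean normalized count was over 20. The test was two-sided with Benjamini-Hochberg adjustment over all 12446 genes and a threshold of 0.05, and the family members were read out of that fit. Fold changes on this scale can understate the change of genes with low counts, and a 0 in a single library can enlarge or reverse them. For single members a two-sided exact permutation test of the difference in mean log2 value was added (126 arrangements of the dose labels, smallest possible p 0.00794). Both the limma and the count tests were tried on simulated data first. Software was Python 3.11.15 with pandas 2.3.3, numpy 2.4.6 and matplotlib 3.10.9, and R 4.3.3 with DESeq2 1.42.0 and edgeR 4.0.16.

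The members, the 7 pathway lists and the cell type markers were chosen with earlier results of these data known. KLHL3 itself was singled out by its change between the same groups, so no p-value of it is given, and nothing is read from its place in the counts of calls. Named genes were KLHL3, all cullins, the 10 most abundant KLHL or KBTBD members, the members with an unadjusted p under 0.05 or with groups that did not overlap, the 2 members on each side of the mean of 20, the 4 most abundant genes of each pathway list with KEAP1, NFE2L2, WNK1, WNK4 and SLC12A3, the genes most and least like KLHL3, and the muscle and lymphoid members. Other genes are named where they account for a small count. The alternatives were pseudocounts of 0.5 and 5, other filters on low values (none, or at least 10 in 4 libraries), quantile normalization, TMM factors, array weights, robust variances, DESeq2 and edgeR on the recovered reads, each library left out in turn, and standard dose replicates 9 and 41 left out together. For pathway genes with an unadjusted p under 0.05 or groups that did not overlap, leaving out these libraries was chosen after seeing the data. The labels give no batch, so none could be examined. Methylation, quantitative PCR and plasma values were not analysed here. The values of 1 gene of the pathway lists are not reported here.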

Additional observations from a re-analysis of the deposited data

Results flagged for a closer look

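In 7 of the 68 group values examined (34 members in 2 groups), 1 library lay far from the other libraries of its group. This was by Dixon's test on log2(normalized count + 1), where chance gives about 1 in 20, or 3.4. On that log scale the outlying library was the lowest in each case. The values printed here are normalized counts, on which the test was not run. In increased-dose lungs CUL1 was 179 in replicate 19, against 290 to 336 in the other 4 libraries. KBTBD2 was 170 in increased dose replicate 3, against 249 to 269 in the others. KBTBD3 was 9.05 in the same library, against 25.0 to 27.9. CUL7 was 6.97 in increased dose replicate 27, against 19.0 to 24.7. In standard-dose lungs CUL3 was 160 in replicate 9, against 272 to 296 in the other 3 libraries. KLHL20 was 92.5 in standard dose replicate 9, against 208 to 241. KLHL9 was 83.9 in standard dose replicate 41, against 226 to 263.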

How the results depend on the processing

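No paired analysis was possible because the groups share no replicate numbers. Over 20 alternatives no member passed the adjusted threshold, except that DESeq2 on the recovered reads called 1 member (KLHL3) and 195 genes in all. Array weights called 2 genes, neither a member, and limma without 1 library called 0 genes in each case. The log2 difference of KLHL3 ran between -2.21 (DESeq2) and -1.17 (array weights), between -2.15 (without standard dose replicate 17) and -1.28 (without standard dose replicate 9) with 1 library left out, and it was -0.93 without standard dose replicates 9 and 41. The median of the members lay between 0.02 and 0.17. Groups did not overlap for 2 to 4 members with 1 library left out, the most without increased dose replicate 3 (5.93% of all genes there, and 4.79 to 9.60% over the libraries left out), and for 6 members (17.6%, against 10.2% of all genes) without standard dose replicates 9 and 41. With no filter on low values 5 members were highest in standard dose replicate 9, and 3 to 4 were with 1 other library left out. Of the 23 named members other than KLHL3, 4 had an exact permutation p under 0.05, but 1 to 4 did with 1 library left out (1 without increased dose replicate 27, 51 or 59, and 2 without increased dose replicate 19 or standard dose replicate 9 or 41), and 1 did without standard dose replicates 9 and 41. With 8 libraries in groups of 4 no p below 0.0286 is possible. The smallest possible p is higher still without standard dose replicates 9 and 41, so these counts are not directly comparable between settings. The cause of the changes between settings was not tested. Of 458 pairs of a named member and an alternative, 30 changed sign in 10 members, the largest of them KBTBD3 (0.82). Members with under about 20 normalized counts are limited by depth.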
